A study of Mus musculus with 71 samples.

Results

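The miRNAs of the Trpm3 and Trpm1 introns, miR-204 and miR-211, were followed through 3 brain regions of the mouse. The 3 members, mmu-miR-204-5p, mmu-miR-204-3p and mmu-miR-211-5p, were taken by name. The deposited tables list 1927 mature miRNAs, and 1085 of them were counted at least once. Mature miRNAs were sequenced from left cortex, left striatum and right cerebellum of male mice. Their genotype was WT or DYT1KI, the latter modelling the dystonia that a mutation of Tor1a causes in people, and they were either naive or had a crush of the right sciatic nerve. The crush lasted 1 minute and was made at 12 weeks of age, and the labels set all tissues at 12 weeks after injury. Crossing region, genotype and treatment gave 12 groups and 71 libraries from 24 animals, with 6 libraries in each group and 5 in the cerebellum of injured WT mice. Animals were identified by the number that ends each library name. The labels name neither the strain nor the zygosity of the DYT1KI mice. Library totals were 5182284 to 10064827 counts for cortex, 6161668 to 10219295 for striatum and 8199033 to 12582875 for cerebellum.

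MicroRNAs are short RNAs cut from hairpin precursors that guide silencing complexes to messenger RNAs. Each hairpin can give a mature RNA from its 5′ arm (5p) and from its 3′ arm (3p), and the bases just behind the 5′ end, the seed, do most of the target recognition. Trpm3 encodes a cation channel of choroid plexus, retinal pigment epithelium and some neurons, and miR-204 of its intron is abundant in epithelia such as choroid plexus, the tissue that secretes cerebrospinal fluid. Trpm1 encodes a channel of melanocytes and of retinal bipolar cells, and its intron carries miR-211. The libraries came from brain regions, not from dissected choroid plexus, so a choroid plexus origin of the counts is not given by the labels.

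The mature sequences are shown because the pair of 5p arms differs at a single base, which bears on how reads were assigned. They are from RefSeq (build GRCm38.p6), which held all 3 members, and are written 5′ to 3′ with the seed (bases 2 to 8) in capitals. In the hairpin both arms are in capitals.
mmu-miR-204-5p: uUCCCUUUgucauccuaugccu
mmu-miR-211-5p: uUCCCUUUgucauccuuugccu
mmu-miR-204-3p: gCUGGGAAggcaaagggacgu
Mir204 hairpin: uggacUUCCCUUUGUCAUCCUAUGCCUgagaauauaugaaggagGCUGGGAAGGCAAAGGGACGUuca

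mmu-miR-204-5p and mmu-miR-211-5p are both 22 bases long, share the seed UCCCUUU and differ by A17U, counted from 1 at the 5′ end with the base of mmu-miR-204-5p first. Of 1738 mature mouse miRNAs in the RefSeq table, 3 had this seed, the third being mmu-miR-7670-3p. mmu-miR-204-3p is 21 bases long and has another seed, CUGGGAA. The Mir204 hairpin lies on the plus strand at chr19:22750605-22750672, with its 5p arm at chr19:22750610-22750631 and its 3p arm at chr19:22750649-22750669. Of 24 annotated Trpm3 transcripts (chr19:22139046-22995410, plus strand), 18 span the hairpin, and in all 18 it is intronic. The 5p arm of Mir211 lies at chr7:64205831-64205852 on the plus strand, and the hairpin is intronic in all 12 of the 23 Trpm1 transcripts (chr7:64153835-64269775) that span it.

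mmu-miR-211-5p was close to absent from the libraries of all 3 regions. Choroid plexus itself was not dissected, so whether the name of the pair as choroid plexus miRNAs holds for this member was not tested. In cortex 6 of 24 libraries held it, with 2 to 5 counts each and 22 in all, which is 0.118 CPM (counts scaled to a common library total; exact Poisson 95% interval 0.0738 to 0.178, for counting error only). In striatum 6 of 24 libraries held it, with 2 to 7 counts each and 23 in all (0.118 CPM, interval 0.0747 to 0.177). In cerebellum it had 0 counts in all 23 libraries, which allows up to 0.0120 CPM over the group (3 counts of 249144014). No library had more than 7 counts. The other arm of the same hairpin, mmu-miR-211-3p, had 0 counts in all 71 libraries.

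Set beside mmu-miR-204-5p, mmu-miR-211-5p made up 0.0550% of the summed counts of both 5p arms in cortex and 0.174% in striatum. How reads with a mismatch were counted is not given in the sources used here, so the few counts of mmu-miR-211-5p are uncertain. In cerebellum 96744 counts of mmu-miR-204-5p came with 0 of mmu-miR-211-5p. In cortex 17 of its 22 counts were in 5 of 12 naive libraries and 5 in 1 of 12 injured libraries. By biol rep number (the labels' replicate number), 20 of the 22 were in biol rep 1 to 3, in 5 libraries that also held miR-24-3p, a miRNA counted in 8 of 24 cortex libraries and at 0 in the others. In striatum 12 counts were in 3 of 12 naive libraries and 11 in 3 of 12 injured ones. mmu-miR-211-5p did not pass the filter on low counts in any region, and the main fits made no test of it. The authors' deposited DESeq2 comparisons hold unadjusted p-values for it in cortex and striatum. The smallest was 0.251 by DESeq2, for naive DYT1KI against naive WT striatum.

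Before the levels of miR-204, 3 cortex libraries need naming, since they stood apart in miRNAs of the Htr2c gene, a serotonin receptor gene of choroid plexus epithelium and some neurons. They were set apart, after the values were seen, by a summed Htr2c-hosted level above 5 times the cortex median: 14.8 times in the injured WT library of biol rep 2, 58.2 times in the naive DYT1KI library of biol rep 1 and 34.3 times in the injured DYT1KI library of biol rep 6. The other 21 cortex libraries lay between 0.478 and 2.25 times the median. Results that rest on these libraries are given with and without them.

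mmu-miR-204-5p was counted in every library. All levels are CPM after TMM scaling over the 71 libraries, a method that corrects library totals for differences in composition. It uses a trimmed mean of the log ratios between libraries. In cortex of naive mice mmu-miR-204-5p ran from 126 to 303 CPM in WT (median 207) and from 83.6 to 959.9 CPM in DYT1KI mice (median 136). In cortex of injured mice it ran from 66.4 to 323 CPM in WT (median 92.5) and from 62.1 to 222.5 CPM in DYT1KI mice (median 123). All 4 cortex groups overlapped, and the highest library of naive DYT1KI and of injured WT mice stood apart from its group.

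In striatum of naive mice mmu-miR-204-5p ran from 44.2 to 74.3 CPM in WT (median 63.0) and from 52.1 to 72.4 CPM in DYT1KI mice (median 61.6). In striatum of injured mice it ran from 36.5 to 62.1 CPM in WT (median 48.1) and from 47.1 to 74.9 CPM in DYT1KI mice (median 53.2). These 24 libraries lay close together and all 4 groups overlapped.

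In cerebellum of naive mice mmu-miR-204-5p ran from 319 to 941 CPM in WT (median 491) and from 289 to 1010 CPM in DYT1KI mice (median 417). In injured WT mice its 5 cerebellum libraries had 920.7, 509, 411.5, 369 and 331 CPM. In injured DYT1KI mice it ran from 274 to 518 CPM (median 364). The 4 cerebellum groups overlapped, and none of them overlapped with a striatum group.

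mmu-miR-204-3p was the scarcer arm in every library. In cortex of naive mice mmu-miR-204-3p ran from 16.0 to 44.1 CPM in WT (median 26.3) and from 17.1 to 66.3 CPM in DYT1KI mice (median 30.98). In cortex of injured mice it ran from 27.98 to 60.4 CPM in WT (median 38.7) and from 30.8 to 121.5 CPM in DYT1KI mice (median 42.9). The naive and injured groups overlapped, as did the genotypes.

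In striatum of naive mice mmu-miR-204-3p ran from 19.7 to 34.3 CPM in WT (median 26.3) and from 26.9 to 32.45 CPM in DYT1KI mice (median 30.3). In striatum of injured mice it ran from 10.7 to 38.02 CPM in WT (median 23.4) and from 22 to 41.55 CPM in DYT1KI mice (median 35.9). The 4 groups overlapped, and the lowest library belonged to an injured WT mouse.

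In cerebellum of naive mice mmu-miR-204-3p ran from 59.8 to 132 CPM in WT (median 82.9) and from 78.0 to 122 CPM in DYT1KI mice (median 108.5). In injured WT mice its 5 cerebellum libraries had 44.8, 92.7, 75.95, 88.2 and 79.45 CPM. In injured DYT1KI mice it ran from 90.8 to 203 CPM (median 129.9). The injured genotypes overlapped only between 90.8 and 92.7 CPM.

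**Figure D1:**
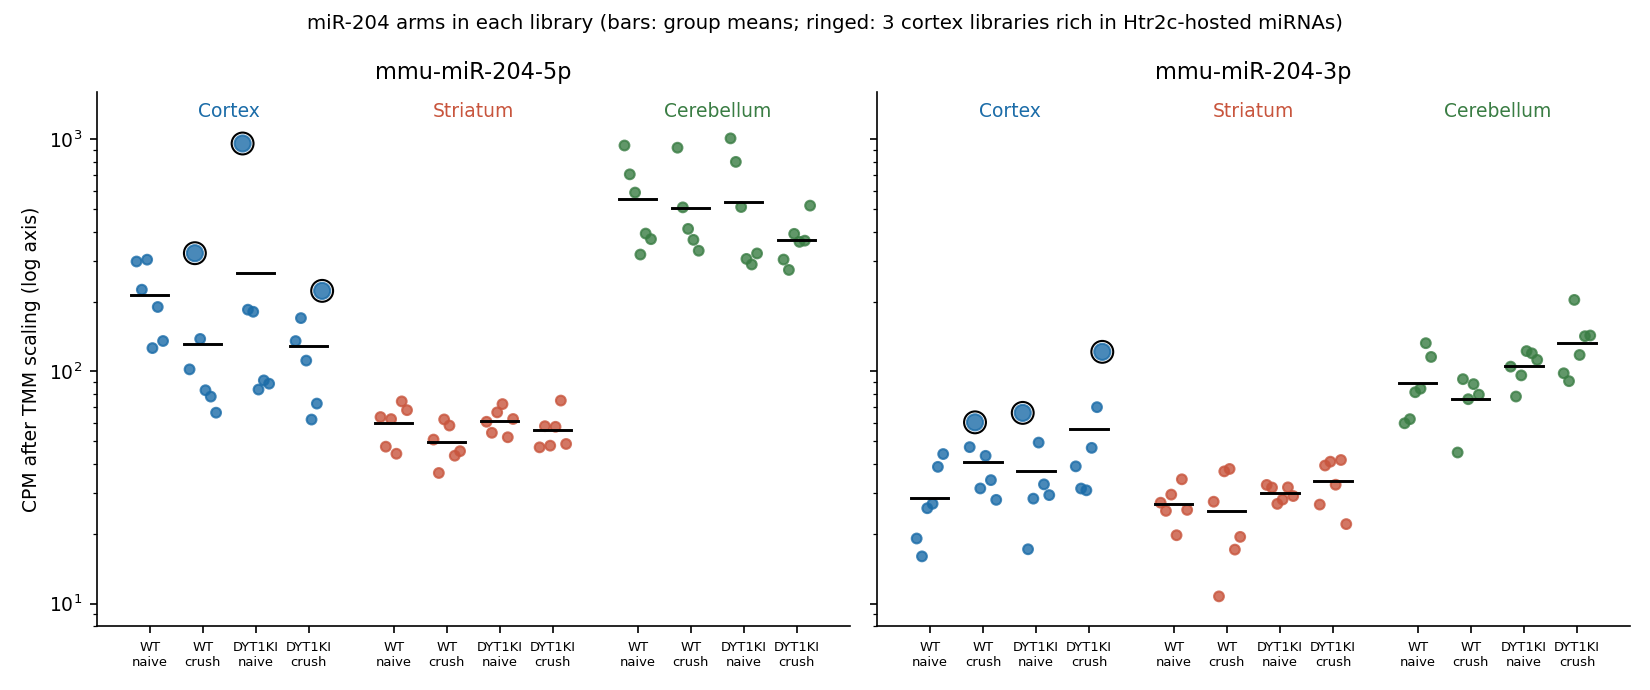
CPM after TMM scaling (log axis) of mmu-miR-204-5p and mmu-miR-204-3p in the 71 libraries by region, genotype and treatment, with bars at the group means and rings on the 3 cortex libraries rich in Htr2c-hosted miRNAs. The cerebellum libraries of mmu-miR-204-5p sit between 274 and 1010 CPM, all above the striatum libraries, which end at 74.9 CPM.

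Both arms were highest in cerebellum and lowest in striatum. Means of mmu-miR-204-5p were 492 ± 227.5 CPM in cerebellum (SD, n = 23), 185 ± 182 in cortex (SD, n = 24) and 56.7 ± 10.5 in striatum (SD, n = 24). Within the same animal mmu-miR-204-5p was higher in cerebellum than in cortex in 23 of 23 mice, and lower in striatum than in cortex in 23 of 24. Between cerebellum and striatum mmu-miR-204-5p differed by 3.11 ± 0.21 on the log2 scale (SE), with an adjusted p of 1.62e-21 by edgeR's quasi-likelihood test with Benjamini-Hochberg adjustment over all miRNAs tested. The log2 difference was 1.47 ± 0.20 between cerebellum and cortex (edgeR's adjusted p = 8.7e-10) and -1.64 ± 0.20 between striatum and cortex (edgeR's adjusted p = 5.97e-11).

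mmu-miR-204-3p followed the same order with smaller differences. Its means were 102 ± 33.9 CPM in cerebellum (SD, n = 23), 40.7 ± 22.4 in cortex (SD, n = 24) and 28.9 ± 7.71 in striatum (SD, n = 24). It was higher in cerebellum than in cortex in 22 of 23 mice, and lower in striatum than in cortex in 17 of 24. The log2 differences of mmu-miR-204-3p were 1.78 ± 0.14 between cerebellum and striatum, 1.32 ± 0.14 between cerebellum and cortex and -0.46 ± 0.14 between striatum and cortex, with edgeR's adjusted p at 5.7e-18, 5.9e-13 and 0.0033. Without the 3 Htr2c-rich cortex libraries the last difference was -0.27 with an adjusted p of 0.0628 by edgeR, above the threshold of 0.05, while the other differences of both arms kept their calls. Such calls were the rule among the 629 miRNAs tested: 61.2% were called between striatum and cortex, 74.6% between cerebellum and cortex and 76.0% between cerebellum and striatum. The cerebellum was also the only region taken from the right side and extracted with another RNA kit, so region, side and kit cannot be told apart in its comparisons. In bulk tissue, fewer cells of a type and less RNA per cell cannot be told apart either.

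The order of the 12 groups by mean level put the 4 cerebellum groups first, the 4 cortex groups next and the 4 striatum groups last for mmu-miR-204-5p. Its group means ran from 553.5 ± 240 CPM in the cerebellum of naive WT mice (SD, n = 6) down to 49.5 ± 9.65 CPM in the striatum of injured WT mice (SD, n = 6). For mmu-miR-204-3p the 4 cerebellum groups again came first, led by injured DYT1KI mice at 132.5 ± 40.9 CPM (SD, n = 6), followed by 3 cortex groups. The fourth cortex group, naive WT mice at 28.4 ± 11 CPM (SD, n = 6), lay between striatum groups. Every group overlapped with the next in both orders, so that no pair of neighbours was separated beyond the spread of its libraries.

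After nerve crush the arms of miR-204 moved in opposite directions in cortex, each short of the threshold. mmu-miR-204-5p averaged 239 ± 239 CPM in naive cortex (SD, n = 12) and 130.4 ± 77.2 in injured cortex (SD, n = 12). The log2 difference, averaged over genotypes, was -0.87 ± 0.38 (SE), with an adjusted p of 0.0783 by edgeR's quasi-likelihood test. mmu-miR-204-3p averaged 32.8 ± 14.8 CPM in naive and 48.7 ± 26.3 in injured cortex (SD, n = 12 each), a log2 difference of 0.56 ± 0.25 with edgeR's adjusted p at 0.0849. Of 12 injured cortex libraries 11 were below the naive mean of their genotype for mmu-miR-204-5p, and 9 were above it for mmu-miR-204-3p. The naive DYT1KI mean of mmu-miR-204-5p, 264.8 CPM, was raised by 1 library at 959.9 CPM. The other 5 naive DYT1KI libraries, at 83.6 to 184.6 CPM, lay below it too, so the count says little for that genotype. The background was high, since 30.9% of the 530 miRNAs tested in cortex were called for injury (58 higher, 106 lower).

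The calls of both arms in cortex depended on single libraries. Without the injured WT library of biol rep 2 mmu-miR-204-5p was at -1.12 (edgeR's adjusted p = 0.0285), and without the naive DYT1KI library of biol rep 4 at -0.95 (edgeR's adjusted p = 0.0427). Without the naive DYT1KI library of biol rep 1, which had 959.9 CPM, it was at -0.22. mmu-miR-204-3p passed without the naive WT library of biol rep 6 (0.72), the naive DYT1KI library of biol rep 1 (0.78) or the injured DYT1KI library of biol rep 1 (0.70) or 3 (0.72), with adjusted p of 0.0317, 0.0393, 0.0427 and 0.0327 by edgeR. Within biol rep 1 to 3 the log2 differences of the 5p and 3p arms were -0.93 and 0.70, and within biol rep 4 to 6 they were -0.28 and 0.52, none with an adjusted p under 0.05 by edgeR. Upper-quartile scaling brought mmu-miR-204-3p to 0.69 (edgeR's adjusted p = 0.0363).

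In striatum mmu-miR-204-5p was 60.01 ± 11.8 CPM in naive and 49.5 ± 9.65 in injured WT mice, and 61.4 ± 7.55 and 55.75 ± 10.6 in naive and injured DYT1KI mice (SD, n = 6 each). The log2 difference was -0.25 ± 0.10 with an unadjusted p of 0.0207 and an adjusted p of 0.408 by edgeR, and 10 of 12 injured libraries were below the naive mean of their genotype. mmu-miR-204-3p was at -0.01 ± 0.16 in striatum (edgeR's adjusted p = 0.991). In cerebellum the log2 differences were -0.25 ± 0.24 for mmu-miR-204-5p and 0.12 ± 0.16 for mmu-miR-204-3p, with edgeR's adjusted p at 0.844 and 0.902. The value of mmu-miR-204-5p turned between biol rep 1 to 3, at -0.73, and biol rep 4 to 6, at 0.27 (edgeR's adjusted p = 0.0741 and 0.697). For injury 0% of the miRNAs tested were called in striatum and in cerebellum, with 54 and 41 at an unadjusted p under 0.05 by edgeR. DESeq2 called 1 and 0.

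Whether the injury effect differed among the 3 regions was tested in a joint fit. The adjusted p of edgeR's F test was 0.478 for mmu-miR-204-5p and 0.413 for mmu-miR-204-3p, where 0.159% of 629 miRNAs were called. A difference of the injury effect between regions was therefore not shown for either arm.

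**Figure D2:**
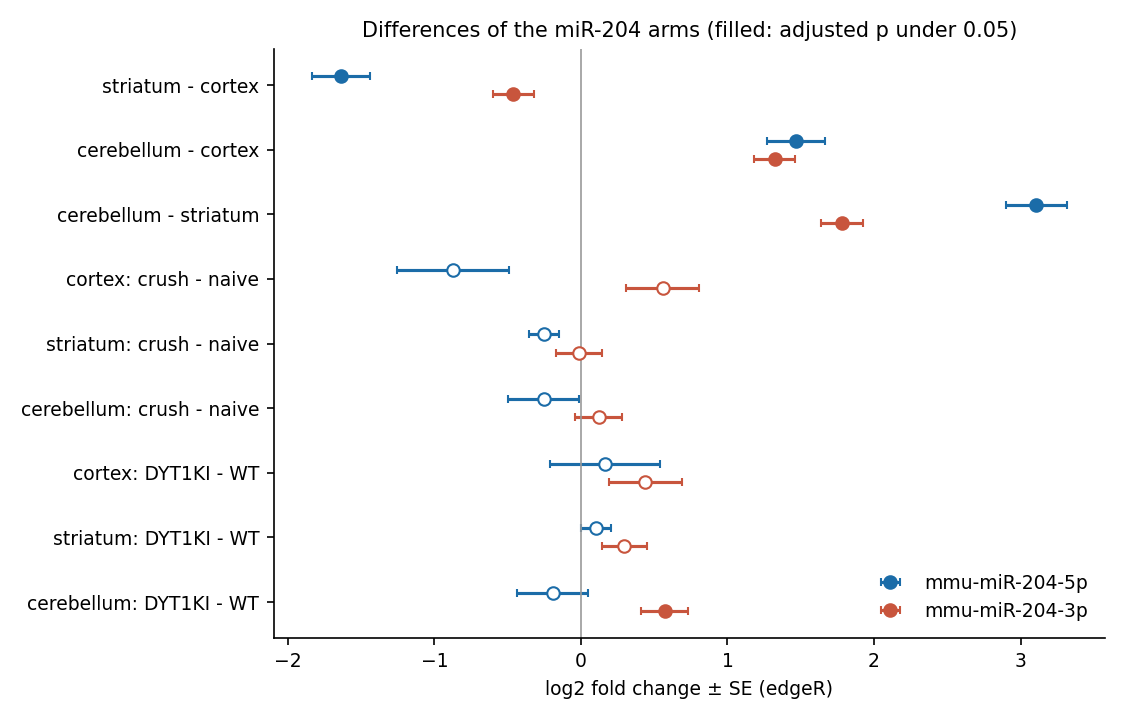
Log2 fold change ± SE (edgeR) of mmu-miR-204-5p and mmu-miR-204-3p between regions, between injured and naive mice and between DYT1KI and WT mice, with filled points where the adjusted p was under 0.05. The largest difference is 3.11 for mmu-miR-204-5p between cerebellum and striatum, and the filled genotype point is mmu-miR-204-3p in cerebellum at 0.57.

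The ratio of the 5p to the 3p arm does not depend on how a library is scaled. Both arms come from 1 hairpin, and 1 of them is usually kept while the other is degraded. The ratio had a median of 3.54 in cortex, 2.003 in striatum and 3.78 in cerebellum, and ran from 1.04 to 15.6, from 1.17 to 3.40 and from 1.93 to 20.6. The mean log2 ratio was 0.98 lower in striatum than in cortex (permutation p = 4e-05, adjusted p = 0.00018 over 9 tests) and 1.23 higher in cerebellum than in striatum (permutation p = 1e-05, the smallest that 100000 permutations can give, adjusted p = 9e-05). Cerebellum and cortex differed by 0.25 (permutation test, adjusted p = 0.405). All permutation tests were two-sided.

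Such differences were common among hairpins. The same test was run, after the miR-204 result was known, on the 155 hairpins whose 2 arms both passed the filter over all libraries. It called 58.1% between striatum and cortex and 62.6% between cerebellum and striatum, with p adjusted over the hairpins. By size the miR-204 difference ranked 33 and 40 of 155.

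In cortex the ratio fell after nerve crush. In naive WT mice the ratio ran from 3.07 to 15.6 (median 8.33) and in injured WT mice from 1.92 to 5.36 (median 2.33). In naive DYT1KI mice it ran from 1.69 to 14.5 (median 4.70) and in injured DYT1KI mice from 1.04 to 5.42 (median 2.65). The injured libraries were low, with overlap in both genotypes. The mean log2 ratio fell by 1.23, from 2.60 ± 1.10 to 1.37 ± 0.77 (SD, n = 12 each; two-sided permutation p = 0.00535, adjusted p = 0.0161), and 11 of 12 injured libraries lay below the naive mean of their genotype. Every fit without 1 library kept this call, with differences from -1.39 to -1.08.

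The ratio also differed between biol rep numbers. In naive cortex it was 6.38 to 15.6 in biol rep 1 to 3 and 1.69 to 4.88 in biol rep 4 to 6, without overlap. Within biol rep 1 to 3 the injured libraries, at 2.16 to 5.42, all lay below the naive ones (log2 difference -1.59, exact permutation p = 0.005, adjusted p = 0.03 over 6 tests). Within biol rep 4 to 6 the injured libraries ran from 1.04 to 2.375 and overlapped with the naive ones (-0.88, exact permutation p = 0.01, adjusted p = 0.03). The fall was thus present within both ranges. Injured cortex libraries of biol rep 1 to 3 and of 4 to 6 overlapped with each other. Other hairpins were not compared by biol rep range.

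Neither the fall nor its size stood alone in cortex. Of all hairpins with both arms tested in cortex, 31.6% (42 hairpins) were called for injury in the same test, 28 with a higher and 14 with a lower 5p share, around a median difference of 0.18. miR-204 ranked 19 by size, with an adjusted p of 0.0272 over these hairpins (permutation test). miR-24-3p, a common miRNA of most tissues, was counted at 9897 to 12800 CPM in 8 cortex libraries and at 0 in the other 16. The ratio was 4.41 to 15.6 in the 8 and 1.04 to 5.36 in the 16, with some overlap. All 6 naive libraries of biol rep 1 to 3 were among the 8, beside 2 of 6 injured libraries of that range, and 0 of 12 libraries of biol rep 4 to 6. In cerebellum 2 of 23 libraries held miR-24-3p, with ratios of 20.6 and 9.64, while the 21 without it ran from 1.93 to 15.7 and 3 of them lay above 9.64. In striatum 0 of 24 libraries held it. Whether a count of 0 stands for absent RNA or for a difference in annotation or counting between sets of libraries was not tested, and neither was its part in the fall of the ratio. Biol rep 4 to 6, where the ratio difference of -0.88 given above was found, held no count of miR-24-3p in cortex. Whether the naive and injured libraries of that range were handled alike was not tested either.

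**Figure D3:**
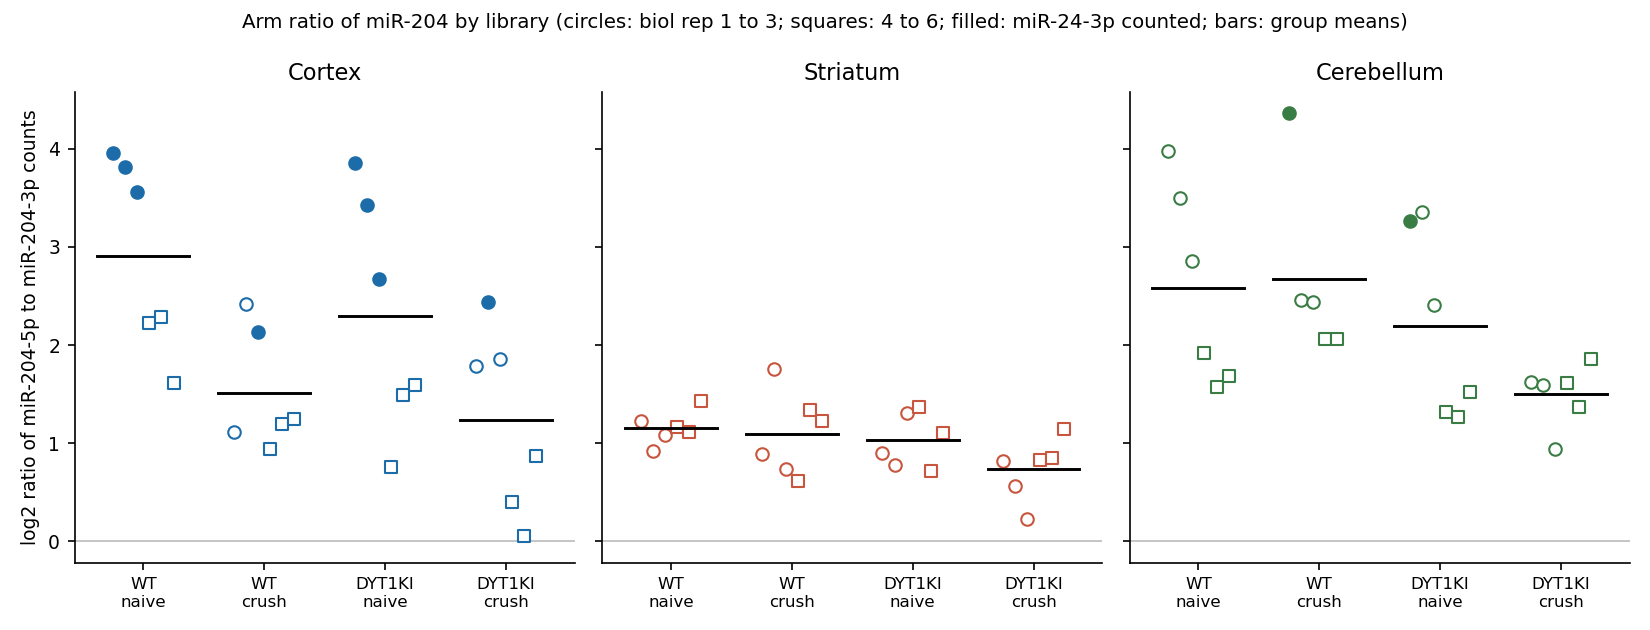
Log2 ratio of miR-204-5p to miR-204-3p counts in each library by region, genotype and treatment, with circles for biol rep 1 to 3, squares for biol rep 4 to 6, filled symbols where miR-24-3p was counted and bars at the group means. In cortex the 6 naive libraries of biol rep 1 to 3 lie highest, between 2.67 and 3.96, and the injured libraries of biol rep 4 to 6 lie between 0.05 and 1.25.

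In striatum the ratio was even across groups, with a difference of -0.17 for injury and -0.24 for genotype (permutation test, adjusted p = 0.2705 and 0.1235). In cortex the ratio differed by -0.44 between genotypes (permutation test, adjusted p = 0.3335), and by -0.72 within biol rep 4 to 6 (exact permutation test, adjusted p = 0.03). In cerebellum the injury difference was -0.30 over all libraries (permutation test, adjusted p = 0.419). It was -0.99 within biol rep 1 to 3 (exact permutation test, adjusted p = 0.11) and 0.29 within biol rep 4 to 6 (exact permutation test, adjusted p = 0.0375), and so turned its direction between the ranges. In naive cerebellum the ratio was 5.32 to 15.7 in biol rep 1 to 3 and 2.41 to 3.78 in biol rep 4 to 6, again without overlap. In injured cerebellum the same ranges overlapped, at 1.93 to 20.6 and 2.58 to 4.18. They also overlapped in naive striatum, at 1.72 to 2.48 and 1.64 to 2.69. Whether such a separation is common among hairpins was not tested.

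In DYT1KI mice mmu-miR-204-3p was higher in cerebellum. Its mean was 106 ± 16.6 CPM in naive DYT1KI against 89.3 ± 29.1 in naive WT mice (SD, n = 6 each), and 132.5 ± 40.9 in injured DYT1KI (SD, n = 6) against 76.2 ± 18.8 in injured WT mice (SD, n = 5). The log2 difference, averaged over treatments, was 0.57 ± 0.16 (SE) with an adjusted p of 0.0367 by edgeR's quasi-likelihood test, and 11 of 12 DYT1KI libraries lay above the WT mean of their treatment. Of the 555 miRNAs tested in cerebellum 5.05% were called for genotype, 20 higher and 8 lower.

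This call was near the threshold. It was lost in 14 of 23 fits that left out 1 library, with log2 differences from 0.49 to 0.64 and edgeR's adjusted p from 0.0209 to 0.0960. The 14 were biol rep 1 to 4 of naive WT, 1 to 3 of injured WT, 1, 4, 5 and 6 of naive DYT1KI, and 2, 3 and 5 of injured DYT1KI mice. The smallest difference, 0.49, was without the injured DYT1KI library of biol rep 3, which had 203 CPM. Within biol rep 1 to 3 the difference was 0.72 (edgeR's adjusted p = 0.104) and within biol rep 4 to 6 it was 0.32 (edgeR's adjusted p = 0.342). Upper-quartile scaling gave 0.56 and no filter on low counts 0.54, with edgeR's adjusted p at 0.0510 and 0.0732. DESeq2 gave 0.57 with an adjusted p of 0.0125. A block by biol rep gave 0.56 and the biol rep range as a term 0.57, with edgeR's adjusted p at 0.0110 and 0.0137. Of 8 settings other than leaving out a library, 4 kept the call.

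mmu-miR-204-5p did not follow its partner arm in cerebellum, at -0.19 ± 0.24 for genotype (edgeR's adjusted p = 0.611). The log2 5p to 3p ratio was 0.78 lower in DYT1KI than in WT cerebellum over all libraries (permutation test, adjusted p = 0.0842), and lower in 10 of 12 DYT1KI libraries than the WT mean of their treatment. Within biol rep 1 to 3 the difference was -1.065 and within biol rep 4 to 6 it was -0.40 (exact permutation test, adjusted p = 0.06 and 0.03). Over hairpins the adjusted p was 0.194 (permutation test), where 1.50% (2 hairpins) were called for genotype in cerebellum.

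In the other regions neither arm passed for genotype. mmu-miR-204-3p was at 0.44 ± 0.25 in cortex and 0.30 ± 0.16 in striatum, with edgeR's adjusted p at 0.990 and 0.564, and 11 of 12 striatum libraries of DYT1KI mice lay above the WT mean of their treatment. mmu-miR-204-5p was at 0.17 ± 0.38 in cortex and 0.10 ± 0.10 in striatum, with edgeR's adjusted p at 0.990 and 0.751. Without the naive DYT1KI library of biol rep 1 the cortex value of mmu-miR-204-5p was -0.43, and without the injured DYT1KI library of biol rep 6 it was -0.02. For genotype 0% of miRNAs were called in cortex and in striatum by edgeR, with 14 and 53 at an unadjusted p under 0.05, and DESeq2 called 0 in both. The test of unequal genotype effects among regions gave an adjusted p of 0.896 for mmu-miR-204-3p and 0.817 for mmu-miR-204-5p by edgeR, with 0% of 629 miRNAs called and 97 at an unadjusted p under 0.05. DESeq2 called 9.

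The interaction of genotype and injury was not called for either arm in any region, as for 0% of miRNAs in cortex, striatum and cerebellum by edgeR, with 20, 16 and 14 at an unadjusted p under 0.05. DESeq2 called 0 in all 3. In cerebellum the interaction was -0.51 ± 0.48 for mmu-miR-204-5p and 0.48 ± 0.32 for mmu-miR-204-3p (edgeR's adjusted p = 0.921 for both). In cortex it depended on the libraries used: for mmu-miR-204-5p it was -0.36 over all libraries, -1.12 within biol rep 1 to 3 and 1.46 within biol rep 4 to 6, and for mmu-miR-204-3p 0.10, -1.33 and 1.20 (edgeR's adjusted p from 0.392 to 0.971).

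The authors' deposited table for each pair of groups gave 12 comparisons. In the authors' deposited table the smallest adjusted p of a member was 0.0870, for mmu-miR-204-3p between injured DYT1KI and injured WT cerebellum, with a log2 fold change of 0.66 ± 0.20 (their standard error). In the authors' deposited table for injured against naive DYT1KI cortex, mmu-miR-204-5p was at -0.67 ± 0.32 (adjusted p = 0.1425) and mmu-miR-204-3p at 0.45 ± 0.27 (adjusted p = 0.263).

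Marker miRNAs of choroid plexus and ependyma were read beside the members. Of the multiciliated list, miRNAs of the miR-34 and miR-449 families that act in ciliated cells, mmu-miR-34c-5p had 1030 ± 242 CPM in cerebellum (SD, n = 23), 240 ± 222 in cortex and 136 ± 68.5 in striatum (SD, n = 24 each), the same order as mmu-miR-204-5p. mmu-miR-449a-5p took another order, with 195.5 ± 19.7 CPM in striatum (SD, n = 24), 45.1 ± 9.58 in cerebellum (SD, n = 23) and 12.0 ± 7.39 in cortex (SD, n = 24). mmu-miR-449b was at 0 everywhere and mmu-miR-449c-5p at 0 in cortex and under 1 CPM elsewhere. Between cerebellum and cortex all 5 multiciliated miRNAs of 7 that could be tested were higher, and between striatum and cortex 1 was higher and 4 were lower.

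The summed level of the Htr2c-hosted list was 522 to 1337 CPM in cerebellum (median 756), 185 to 299.8 in striatum (median 258.5) and 13.6 to 1512 in cortex (median 28.65). Cortex and striatum thus stood in the reverse order to the miR-204 arms: all 4 Htr2c-hosted miRNAs that differed between striatum and cortex were higher in striatum. mmu-miR-1911-5p and mmu-miR-1911-3p were at 0 everywhere. Of 9 Htr2c-hosted miRNAs 6 could be tested between cerebellum and cortex, and all 6 were higher in cerebellum. Between cerebellum and striatum the 6 were mixed: 3 were called higher and 1 lower in cerebellum. The lower one was mmu-miR-1298-3p, at -1.085 on the log2 scale (edgeR's adjusted p = 4.96e-06).

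The 3 Htr2c-rich cortex libraries were also the highest of their groups in both arms of miR-204. mmu-miR-204-5p in the naive DYT1KI library was at 959.9 CPM, against 83.6 to 185 in the other 5 libraries of its group. In the injured WT library it was at 323 CPM, against 66.4 to 138.1 in the other 5. In the injured DYT1KI library mmu-miR-204-5p was at 222.5 CPM against 62.1 to 169.8, and mmu-miR-204-3p at 121.5 CPM against 30.8 to 70.2. The arms thus stood out unequally, since the 5p to 3p ratio was 14.5 in the naive DYT1KI library and 1.83 in the injured DYT1KI library.

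Other markers in the same libraries did not all rise. mmu-miR-1298-5p, an Htr2c-hosted miRNA, was at 1113, 362.5 and 835 CPM in the naive DYT1KI, injured WT and injured DYT1KI library. Other libraries of their groups ended at 43.7 CPM. It is part of the sum by which these libraries were chosen, so its rise follows from the choice. mmu-miR-34c-5p was at 1052, 457 and 741 CPM, against at most 375, 216 and 164 in the other libraries of the same group. mmu-miR-449a-5p was at 9.93, 9.69 and 12.9 CPM and lay within the range of the other libraries of each group. The summed neuron, oligodendrocyte, blood and endothelium lists of these libraries were 0.827 to 1.57 times the median of the other libraries of the group. The summed miR-200 family, miRNAs of epithelia, was at 4.03, 1.22 and 2.53 times that median in the naive DYT1KI, injured WT and injured DYT1KI library. The striatum libraries of the same 3 animals had 60.7, 36.5 and 48.7 CPM of mmu-miR-204-5p, and their cerebellum libraries had 1010, 920.7 and 518 CPM.

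The cortex values were also taken without these 3 libraries. mmu-miR-204-5p was 139.3 ± 70.5 CPM and mmu-miR-204-3p 34.7 ± 12.6 CPM in the other 21 cortex libraries (SD, n = 21). For injury mmu-miR-204-5p was at -0.64 ± 0.23 and mmu-miR-204-3p at 0.43 ± 0.20, with edgeR's adjusted p at 0.0911 and 0.136, while 0 miRNAs were called in cortex by edgeR (180 at an unadjusted p under 0.05). The fall of the 5p to 3p ratio was -1.13 (permutation test, adjusted p = 0.04155). For mmu-miR-204-5p 2 of the 3 cortex comparisons turned their direction, genotype from 0.17 to -0.27 and the interaction of genotype and injury from -0.36 to 1.03, none of these with an adjusted p under 0.05 by edgeR. The directions of mmu-miR-204-3p did not turn.

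Marker lists were also set beside the cortex and cerebellum contrasts. The summed Htr2c-hosted level was 13.6 to 1512 CPM in naive and 18.03 to 1077 CPM in injured cortex (medians 28.65 and 29.25), and the summed multiciliated level 102 to 1139 and 132 to 780.4 CPM (medians 186 and 181). For injury in cortex edgeR called mmu-miR-449a-5p higher, 1 of 4 multiciliated miRNAs tested. Lower were mmu-miR-145a-5p of endothelium and vessel wall (1 of 4), mmu-miR-219a-5p of oligodendrocytes, mmu-miR-451a of blood and mmu-miR-9-5p of neurons (1 of 3 each). Each of these lists also held an uncalled miRNA with the opposite direction. Their median log2 differences were -0.17, 0.078, -0.29, -0.81 and -0.058, in the order named. Over all miRNAs tested in cortex 30.9% were called. In cerebellum the summed Htr2c-hosted level was 523 to 1157 CPM in WT and 522 to 1337 in DYT1KI mice (medians 707 and 776), and the summed multiciliated level 774 to 1549 and 782 to 1482 CPM (medians 1241 and 995). For genotype in cerebellum mmu-miR-144-3p of blood was lower, at -1.58 (edgeR's adjusted p = 0.0267), and no other marker was called. The part of these cell types in the results of the members was not tested.

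mmu-miR-204-5p was compared between regions of the same mouse. Over the 20 mice left without the 3 cortex libraries, deviations from the group mean in cerebellum and cortex correlated with Pearson's r of 0.61 (permutation test, p = 0.00593, adjusted p = 0.0356 over 12 relations) and Spearman's rho of 0.60 (permutation p = 0.00904, adjusted p = 0.0362). Over all 23 mice r was 0.81 and rho 0.78 (permutation test, adjusted p = 0.00048 for both), and without the 2 mice farthest from the median r was 0.70 (permutation test, adjusted p = 0.0109). Libraries of biol rep 1 to 3 were the higher ones in both regions, with medians of 183 against 86.1 CPM in cortex and 551 against 362 CPM in cerebellum. Within biol rep 1 to 3 r was 0.62 and within biol rep 4 to 6 it was 0.88 (n = 11 each; permutation test, adjusted p = 0.445 and 0.1825), so the relation did not pass within either range. An injured WT mouse with biol rep 4 in cortex and biol rep 3 in cerebellum fell in neither range. Striatum did not show it, with r of -0.23 against cortex (n = 24) and -0.21 against cerebellum (n = 23; permutation test, adjusted p = 0.355 and 0.412).

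The arms were compared with each other within each region, and a difference between regions was not tested. In striatum mmu-miR-204-5p and mmu-miR-204-3p rose and fell together between mice of a group, with r of 0.71 and rho of 0.61 (n = 24; permutation test, adjusted p = 0.00288 and 0.0244), and r of 0.62 without the 2 farthest libraries (permutation test, adjusted p = 0.0359). Within the ranges of biol rep r was 0.79 and 0.77 in striatum (n = 12 each; permutation test, adjusted p = 0.262 and 0.085). In cerebellum r was -0.45 over all libraries (n = 23; permutation test, adjusted p = 0.05815), but 0.74 within biol rep 4 to 6 and -0.22 within biol rep 1 to 3. In cortex all 24 libraries gave r of 0.27 and rho of -0.01 (permutation test, adjusted p = 0.355 and 0.963). The 21 libraries other than the 3 named above gave r of -0.58 (permutation test, adjusted p = 0.0551) and rho of -0.64 (permutation test, adjusted p = 0.0362). With the 3 kept, r in cortex was 0.82 within biol rep 1 to 3 and 0.74 within biol rep 4 to 6 (n = 12 each; permutation test, adjusted p = 0.262 and 0.1825).

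Each arm was also set against the mean of the choroid plexus and ependyma markers. Over all 24 cortex libraries r was 0.80 for mmu-miR-204-5p and 0.60 for mmu-miR-204-3p (permutation test, adjusted p = 0.0032 and 0.0266). The rho values were 0.57 and 0.32 (permutation test, adjusted p = 0.0244 and 0.238). Without the 3 Htr2c-rich libraries r was 0.24 and -0.20 (n = 21; permutation test, adjusted p = 0.526 and 0.567). Htr2c-hosted miRNAs are part of this mean, so leaving these libraries out also narrowed its range. In cerebellum r was 0.54 for mmu-miR-204-5p (n = 23; permutation test, adjusted p = 0.0452) and 0.51 without the 2 farthest libraries (permutation test, adjusted p = 0.0988). It was 0.27 and 0.20 within biol rep 1 to 3 and 4 to 6. For mmu-miR-204-3p in cerebellum r was -0.03. In striatum r was -0.16 for mmu-miR-204-5p and -0.47 for mmu-miR-204-3p (n = 24; permutation test, adjusted p = 0.538 and 0.0572). The marker mean held 8 of 16 listed markers in cortex, 9 in striatum and 11 in cerebellum.

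**Figure D4:**
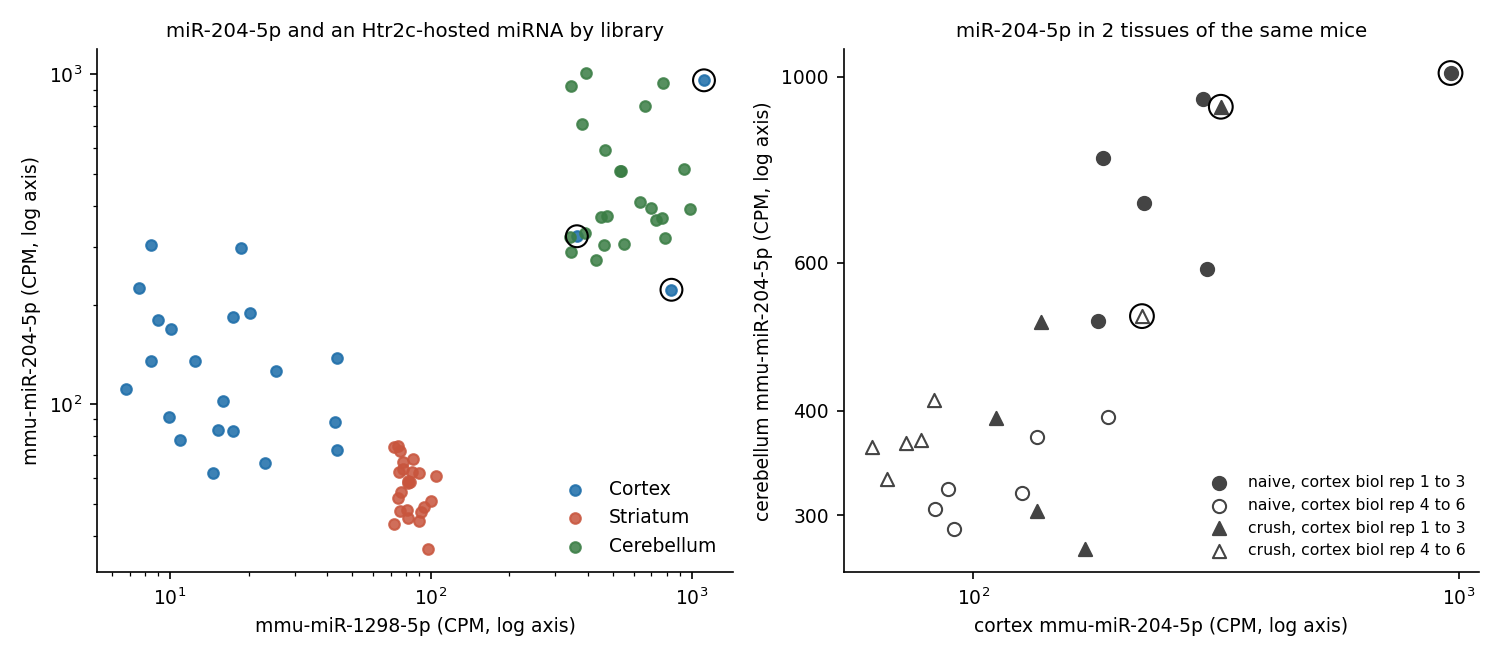
Left, CPM (log axes) of mmu-miR-204-5p against mmu-miR-1298-5p in each library, coloured by region; right, mmu-miR-204-5p CPM (log axes) in cerebellum against cortex of the same 23 mice, with rings on the 3 cortex libraries rich in Htr2c-hosted miRNAs. The 3 ringed cortex libraries lie at 362.5 to 1113 CPM of mmu-miR-1298-5p, apart from the other cortex libraries, which end at 43.7 CPM. mmu-miR-1298-5p is part of the sum by which these libraries were chosen, so this gap follows from the choice.

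The miRNAs most like each member were ranked by Pearson's r of log2 CPM, as a description with no test, over libraries that share depth and region. Over the 12 group means mmu-miR-204-5p was most like mmu-miR-195a-5p (r = 0.98), mmu-miR-28a-5p/28c and mmu-miR-195a-3p (0.98 each). mmu-miR-204-3p was most like mmu-let-7d-5p (0.98), mmu-miR-155-5p and mmu-let-7g-5p (0.97 each). These 12 means hold the differences between regions.

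Within a region, deviations from group means gave other partners. For mmu-miR-204-5p they were mmu-miR-34b-5p (0.92), mmu-miR-199a-3p/199b-3p (0.86) and mmu-miR-34c-5p (0.80) in cortex, of which mmu-miR-34b-5p and mmu-miR-34c-5p were on the multiciliated list. Without the 3 cortex libraries the first places went to mmu-miR-23a-3p/23b-3p, mmu-miR-132-3p (0.95 each) and mmu-miR-496a-3p (0.94). In striatum mmu-miR-219a-2-3p, an oligodendrocyte miRNA, came first for mmu-miR-204-5p (0.83), before mmu-miR-155-5p (0.67) and mmu-miR-3093-3p (0.66). In cerebellum they were mmu-miR-30c-5p (0.97), mmu-miR-150-5p (0.93) and mmu-miR-23a-3p/23b-3p (0.93).

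For mmu-miR-204-3p in cortex the order was mmu-miR-375-3p (0.74), mmu-miR-448-3p (0.70) and mmu-miR-1298-5p (0.68), and the last 2 are Htr2c-hosted. Without the 3 cortex libraries it was mmu-miR-664-5p, mmu-miR-1981-5p (0.91 each) and mmu-miR-485-5p (0.90). mmu-miR-320-3p and mmu-miR-423-5p were the pair closest to mmu-miR-204-3p both in striatum (0.92 and 0.93) and in cerebellum (0.87 and 0.83), followed by mmu-miR-193b-5p (0.83) and mmu-miR-92b-5p (0.81). No miRNA was among the 3 most like both arms in the same region.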

How the data were processed

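Mature miRNAs of 71 libraries were counted. The deposited tables hold raw counts per mature miRNA, and the authors' own log2 fold changes, standard errors, p-values and adjusted p-values made with DESeq2, per the file headers. There are 12 tables, 4 for each region with identical counts, and 0 columns of library values were left unmapped. R 4.1.0 and featureCounts 1.6.4 are named, per the submitters' processing notes. Aligner, build, annotation and identifier collapsing were not given in the sources used here.

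Counts as deposited were fitted for each region by edgeR's quasi-likelihood test (edgeR 4.0.16 in R 4.3.3, TMM scaling, robust), over miRNAs kept by filterByExpr (minimum count 10, minimum total 15). Regions were compared in a joint fit of all libraries. P-values were adjusted by Benjamini-Hochberg over all miRNAs tested, with calls under 0.05. The fit was tested on simulated data. Correlations used log2 CPM with a prior count of 2, as deviations from group means. The log2 ratio of the arms, with 0.5 added to each count, was tested by 100000 permutations of the labels within genotype (injury), within treatment (genotype) or within both (regions), in 9 tests. Planned tests of miR-211 could not be run on its counts. Intervals are 95% and the limit for a count of 0 is 3 counts, for counting error only. Both assume that single reads were kept. DESeq2 1.42.0 was an alternative. Python 3.11.15, numpy 2.4.6, scipy 1.17.1, pandas 2.3.3 and matplotlib 3.10.9 did the rest.

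The members, marker lists and tests were chosen with earlier results of these data known. Named beside the members were the marker miRNAs and, for each member, the 3 miRNAs with the highest r. Regions of the same animal were paired by the animal number, and the fit with the animal as a block changed no call. Nothing in the labels says that libraries of a group came from separate litters or days. Biol rep numbers stand for different animals in each group, and for injured WT mice they also differ between cerebellum and the other regions.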

Additional observations from a re-analysis of the deposited data

Results flagged for a closer look

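In each group of 4 to 10 libraries the highest and the lowest value were compared with the others by Dixon's test, over 36 groups, of which chance alone would mark about 1 in 20. 3 libraries stood far from their group. mmu-miR-204-5p was at 323.3 CPM in the cortex of the injured WT mouse of biol rep 2, where the next library had 138.1 CPM. It was at 959.9 CPM in the cortex of the naive DYT1KI mouse of biol rep 1, where the next library had 184.6 CPM. The 5p to 3p ratio was 20.57 in the cerebellum of the injured WT mouse of biol rep 1, where the next library had 5.497. The first and the last of these libraries came from the same animal.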

How the results depend on the processing

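Of 243 results of the members under settings other than leaving out a library, 220 kept their direction and their side of the threshold. The replicate block by animal kept all 18 results between regions. Same-numbered libraries of different groups had deviations with a median r of 0.25 in cortex, -0.04 in striatum and 0.17 in cerebellum, against -0.15, -0.0043 and -0.037 for other numbers. Not every same-numbered pair was positive (-0.25 to 0.70 in cortex), so biol rep was not taken as a pairing. Deviations were shared by biol rep range: the median r was 0.25 within and -0.28 between the ranges in cortex, and 0.11 and -0.091 in cerebellum. The replicate block by biol rep turned mmu-miR-204-5p in cortex to -0.030 for genotype and 0.18 for the interaction, and mmu-miR-204-3p to -0.081 for the interaction, and raised the miRNAs called for genotype in cerebellum from 28 to 89. With the biol rep range as a term the cortex interactions were 0.11 and -0.075, and 74 miRNAs were called for cerebellum genotype. Upper-quartile scaling gave mmu-miR-204-3p 0.69 for injury in cortex (now called), 0.023 for injury in striatum (turned) and 0.56 for genotype in cerebellum (no longer called), and no filter gave the last 0.54 with 0 miRNAs called. Within biol rep 1 to 3 the cortex interaction of mmu-miR-204-3p was -1.33, its cerebellum genotype value 0.72 with 0 miRNAs called, and 32 miRNAs were called for injury in cerebellum. Within biol rep 4 to 6 mmu-miR-204-5p was at -0.080 (cortex genotype), 1.46 (cortex interaction), 0.27 (cerebellum injury) and 0.39 (cerebellum interaction), and mmu-miR-204-3p at -0.050 (cerebellum injury) and 0.32 (cerebellum genotype, 0 called). These counts of 0 for cerebellum genotype, by edgeR, stood beside 193 miRNAs at an unadjusted p under 0.05 with no filter, 147 within biol rep 1 to 3 and 81 within biol rep 4 to 6. The arm ratio within biol rep 4 to 6 was -0.72 for cortex genotype, 0.29 for cerebellum injury and -0.40 for cerebellum genotype. Without the 3 Htr2c-rich libraries mmu-miR-204-5p in cortex was at -0.27 for genotype and 1.03 for the interaction, mmu-miR-204-3p at -0.27 between striatum and cortex, and the miRNAs called for injury in cortex went from 164 to 0. DESeq2 called 61 for genotype in cerebellum, 4 against 1 for unequal injury effects and 9 against 0 for unequal genotype effects. Correlations that turned were r of -0.17 (without the 2 farthest) and -0.58 (without the 3 libraries) between the arms in cortex, 0.74 between the arms in cerebellum of biol rep 4 to 6, 0.38 and 0.11 between mmu-miR-204-3p and markers in cerebellum of either range, and, without the 3 libraries, -0.20 between mmu-miR-204-3p and markers in cortex and 0.032 between striatum and cortex. The cause of these changes was not tested.

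Leaving out 1 library, mmu-miR-204-5p in cortex ran from -1.12 to -0.22 for injury, -0.43 to 0.41 for genotype and -0.56 to 0.80 for the interaction. mmu-miR-204-3p ran from 0.45 to 0.78 for injury and -0.30 to 0.38 for the interaction in cortex, -0.084 to 0.070 for injury in striatum and 0.49 to 0.64 for genotype in cerebellum. The arm ratio for genotype in cerebellum ran from -0.90 to -0.57, passing in 4 of 23 fits. The miRNAs called for injury in cortex ran from 25 to 220 and for genotype in cerebellum from 0 to 70. The few counts of mmu-miR-211-5p allow no comparison between groups.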
